A study of Mus musculus with 12 samples.

Results

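Smooth muscle actin, the tropomyosins, caldesmon and their partners on the contractile thin filament were followed in carotid arteries of mice lacking fibulin-5 and of wild type mice. The 10 genes were Acta2, Actg2, Tpm1, Tpm2, Tpm3, Tpm4, Cald1, Cnn2, Tagln and Myl9. They were taken with every array probe that the platform annotation gives to them, which came to 32 of the 45281 probes, and to 10 of the 19057 genes with a probe of their own. The 4 groups were the ligated left common carotid artery of fibulin-5 knockout mice (KO LCA), the untouched right common carotid artery of the same genotype (KO RCA), and the ligated left (WT LCA) and untouched right (WT RCA) arteries of wild type mice, with 3 Illumina arrays each. Partial ligation of the left artery brings disturbed flow. All arteries were taken 1 day after it, and all mice are labelled C57Bl/6J. The labels call the mutant FibVKO, while the design text also speaks of a knockdown. No source used here gives the deleted exons or the age and sex of the mice. Nothing says that each array of a group holds a different mouse, so the spread behind the p-values may be technical. The stated aim concerned the role of fibulin-5, a protein of elastic fibres, in artery stiffness and atherosclerosis when flow is disturbed.

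In smooth muscle, actin filaments wrapped in tropomyosin slide along myosin once the myosin light chain is phosphorylated. Caldesmon and the calponins bind the thin filament and dampen its interaction with myosin. Genes for these proteins are switched on together by serum response factor (SRF), which binds the CArG box in their promoters and enhancers with its partners myocardin and the myocardin-related factors. Smooth muscle cells of the arterial media express much of the set at high level, and activated fibroblasts, pericytes and other motile cells express part of it.

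Depth on these arrays is a matter of signal over background. Deposited intensities ran from 72.4 to 10230, with a median of 93.6 and a 95th percentile of 197. As a guide to background, the 95th percentile of 1504 probes for olfactory and vomeronasal receptors was taken on each array, and it lay between 95.7 and 126. Where a probe did not exceed this receptor level on any array of a group, it is described as at background in that group. The WT LCA replicate 3 array stood apart, with 11.7% of all probes above its receptor level and a median correlation of 0.691 with the other arrays, against 20.9% to 41.5% and 0.781 to 0.865 on the rest. The next lowest on both measures was WT RCA replicate 3. Fbln5 itself had 1 probe between 80.6 and 97.4 that was above the receptor level on 0 of 12 arrays, so it checks nothing about the knockout. Among the defining genes of contractile smooth muscle, Myh11 (87.3 to 118), Cnn1 (90.3 to 99.3), Lmod1 (85.9 to 97.2) and Des (85.0 to 100) lay near the receptor level. Smtn (88.5 to 717) exceeded it on 8 arrays and Mylk (84.3 to 384) on 11. The endothelial genes Pecam1 (753 to 3593) and Cdh5 (153 to 266) were above it on all 12 arrays. The labels name the whole artery as the source.

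Of the 32 member probes, 6 exceeded the receptor level on all 12 arrays, 23 on some and 3 on none. Acta2 and Tpm3 had 6 probes each, Cald1 had 5, Tpm1, Tpm2 and Tpm4 had 3 each, Cnn2 and Tagln had 2 each, and Actg2 and Myl9 had 1 each. Probes of a gene are given separately and never averaged. A probe's level is not set against another probe's, since each binds with its own strength. The coding sequences of the actins are nearly alike, as are stretches of the tropomyosins, and probe sequences were not used here, so cross-binding between paralogs was not tested. In whole-tissue RNA, a change in the number of cells of a type and a change in RNA per cell cannot be told apart.

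The promoter windows of the members are given because Acta2, Tpm1, Cald1 and Myl9, which had higher values in ligated knockout arteries, are known SRF targets. RefSeq windows on GRCm38.p6, from 250 bases before to 50 after a gene's start, were matched for 8 of the 10 genes, in 10 windows. They were searched on both strands for the exact CArG box, CCWWWWWWGG, where W is A or T. The other string was the MCAT box (CATTCC or its complement GGAATG), to which the TEAD factors bind. The 2 motifs did not overlap in any window. The exact CArG box was found in 2 of the 10 windows, against 1.63% of 32851 windows of the table. Strings that depart from it, such as ccctatatgg and ccttgtttgg in the Acta2 window, were not counted. The MCAT box was found in 3 of 10, against 14.7%. Capitals mark the motif in each window, which is written along the gene's own strand.
Acta2, chr19:34255324-34255623, minus strand, MCAT box at -146 from the start: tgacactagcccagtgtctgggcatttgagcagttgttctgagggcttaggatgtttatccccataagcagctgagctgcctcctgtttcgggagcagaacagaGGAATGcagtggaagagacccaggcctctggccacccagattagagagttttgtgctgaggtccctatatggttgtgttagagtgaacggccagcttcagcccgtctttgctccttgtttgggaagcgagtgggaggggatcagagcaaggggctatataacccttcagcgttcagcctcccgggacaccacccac
Tpm1, chr9:67049164-67049463, minus strand, MCAT box at -56: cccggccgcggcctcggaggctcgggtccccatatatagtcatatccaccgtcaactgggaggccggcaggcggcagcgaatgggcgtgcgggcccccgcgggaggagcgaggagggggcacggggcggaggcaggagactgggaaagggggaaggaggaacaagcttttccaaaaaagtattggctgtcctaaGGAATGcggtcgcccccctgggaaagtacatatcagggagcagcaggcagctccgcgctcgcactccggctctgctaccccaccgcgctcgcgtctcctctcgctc
Cald1, chr6:34598254-34598553, plus strand, MCAT box at -153: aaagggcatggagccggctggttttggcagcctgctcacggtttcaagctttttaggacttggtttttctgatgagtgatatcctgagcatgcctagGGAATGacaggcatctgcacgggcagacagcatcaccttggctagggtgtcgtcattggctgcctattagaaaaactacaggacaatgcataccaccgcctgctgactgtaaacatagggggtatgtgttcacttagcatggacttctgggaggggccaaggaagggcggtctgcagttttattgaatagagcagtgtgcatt
Cnn2, chr10:79988350-79988649, plus strand, CArG box CCTTATAAGG at -56: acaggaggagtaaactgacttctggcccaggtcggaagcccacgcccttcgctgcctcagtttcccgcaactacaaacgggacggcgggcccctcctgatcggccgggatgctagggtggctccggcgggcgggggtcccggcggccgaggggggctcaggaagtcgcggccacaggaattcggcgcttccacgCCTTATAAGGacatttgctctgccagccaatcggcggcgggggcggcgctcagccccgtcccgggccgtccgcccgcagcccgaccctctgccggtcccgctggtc
Myl9, chr2:156775214-156775513, plus strand, CArG box CCTAATAAGG at -161: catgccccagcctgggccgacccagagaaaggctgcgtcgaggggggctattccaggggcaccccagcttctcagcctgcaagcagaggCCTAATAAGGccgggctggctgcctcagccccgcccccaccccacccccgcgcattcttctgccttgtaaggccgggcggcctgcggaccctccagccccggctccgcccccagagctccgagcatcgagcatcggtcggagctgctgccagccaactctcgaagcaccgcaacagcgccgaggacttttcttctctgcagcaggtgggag
These are matches of letters and not shown binding sites. The windows of Tpm2, Tpm3, Tpm4 and the second start of Cald1 held neither string.

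The question of the genotype comparison in the ligated artery is whether thin filament genes differ between knockout and wild type under disturbed flow. Acta2, Tpm1, Cald1, Tpm4 and Myl9 had higher values in KO LCA than in WT LCA, by 2.35-fold to 4.43-fold at the brightest probe of each gene. All 3 KO LCA arrays lay above all 3 WT LCA arrays for 19 of the 32 member probes, where 6.68% of all probes did so. They lay below for 2 member probes, where 5.48% of all probes did so. The median log2 difference was 0.46 over the member probes and -0.01 over all probes, and 28 of 32 were above 0, against 46.9% of all probes. In limma with Benjamini-Hochberg adjustment over 45281 probes, 0 member probes passed at 0.05 and 1 probe of the whole table did (0.00221%). At an unadjusted p under 0.05, 20 member probes were higher (3.84% of all probes) and 1 was lower (2.06%). The lowest adjusted p of a member was 0.0550, shared by 2 Tpm1 probes and 1 Cald1 probe. These 3 passed with adjusted p = 0.0476 when dim probes were left out and 32606 were tested. Leaving out dim probes keeps 30 of the 32 member probes. Other settings of limma gave the same 3 probes higher values. Their adjusted p lay between 0.205 and 0.563 with trend and robust, and between 0.114 and 0.249 with the arrays centred on bright probes. Without WT LCA replicate 3, 19 member probes were higher at an unadjusted p under 0.05 (3.03% of all probes). The members were chosen with earlier results of these data known, and probes of a gene are not independent. Their shares beside those of all probes, here and in the other comparisons, are thus descriptions and not tests.

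**Figure D1:**
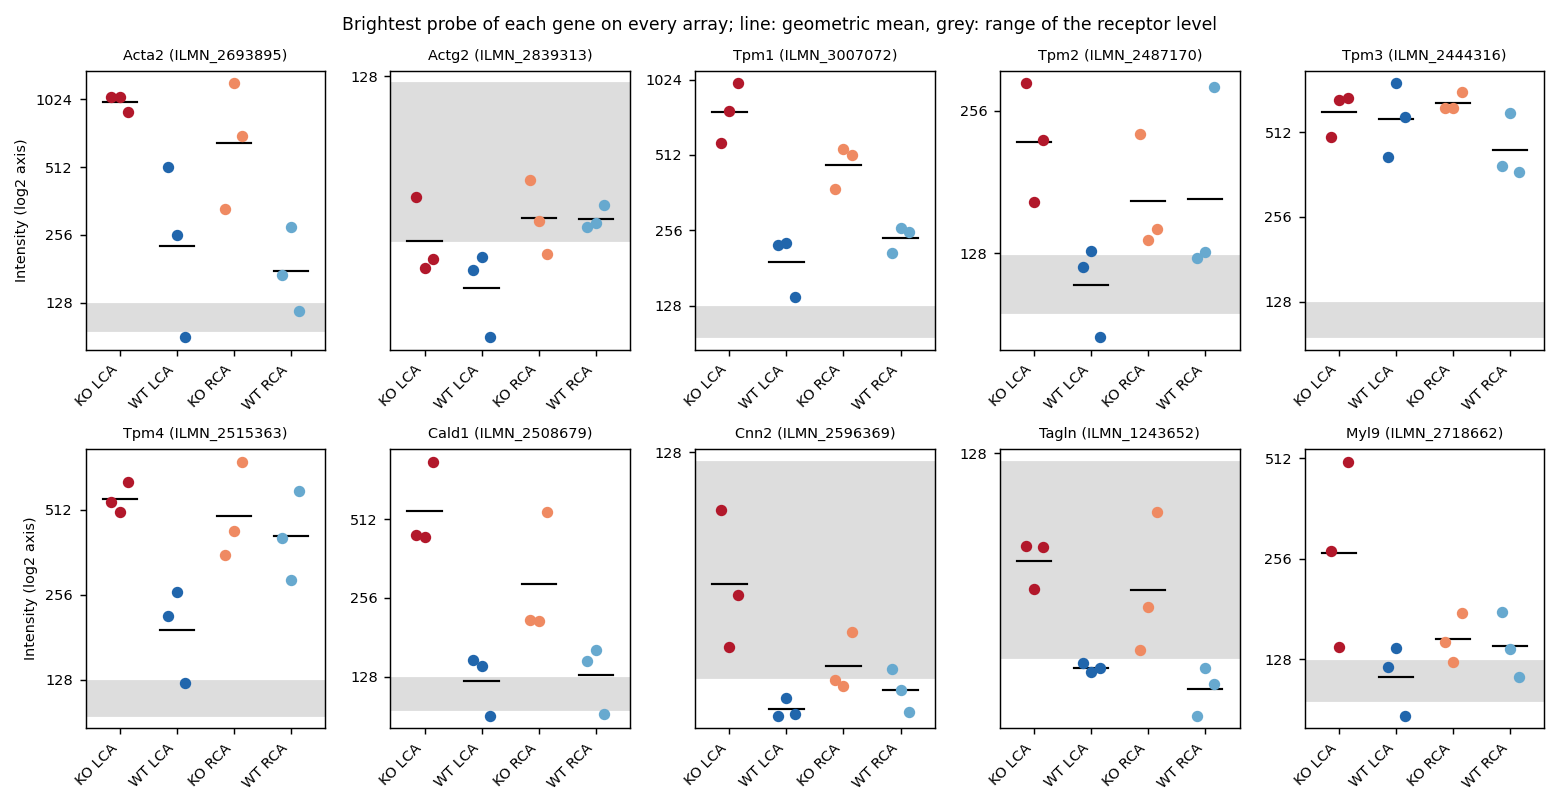
Intensity (vertical axes, log2 scale) of the brightest probe of each of the 10 genes on every array, by group along the horizontal axes. Points are arrays, lines are geometric means of 3 arrays and the grey band spans the receptor levels of the 12 arrays (95.7 to 126). The KO LCA arrays lie above the WT LCA arrays in 8 of the 10 panels, and Actg2, Cnn2 and Tagln lie in or under the band.

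Acta2 (chr19:34240336-34255585), which encodes the alpha actin of vascular smooth muscle, is a main component of the contractile thin filament. Its brightest probe, ILMN_2693895, read 1049, 1052 and 895 in KO LCA, against 514, 257 and 89.9 in WT LCA. The WT LCA arrays spread widely and the lowest of them is the array that stands apart. The log2 difference was 2.13 ± 0.63 (SE), with adjusted p = 0.640 in limma, and 1.46 without WT LCA replicate 3. The probe ILMN_2710354 was steadier, at 820, 1007 and 726 in KO LCA, against 326, 425 and 350.3 in WT LCA. Its difference was 1.21 ± 0.17, adjusted p = 0.0793, and 1.18 without WT LCA replicate 3. ILMN_2710353 gave 1.08 ± 0.23, with means of 660.0 ± 171 (SD, n = 3) in KO LCA and 307 ± 40.5 in WT LCA. A further probe, ILMN_2923445, read 973, 275 and 213 in KO LCA and 369, 107 and 117 in WT LCA, so these groups overlap. Both remaining probes were close to the receptor level. ILMN_1236619 differed by 0.01 ± 0.06, and ILMN_1237242 had adjusted p = 0.0995 with WT LCA at background, which gives no fold above 1.

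Tpm1 (chr9:67022590-67049672) encodes alpha tropomyosin, which lies along the actin filament and sets myosin's access to it. Its brightest probe, ILMN_3007072, read 573, 768 and 989 in KO LCA, against 223, 227 and 138 in WT LCA. ILMN_2518346 read 436, 413 and 389 in KO LCA, against 152, 153 and 102 in WT LCA. The third, ILMN_1237801, read 310, 455 and 269.5 in KO LCA and 123, 198 and 107 in WT LCA. The genotypes did not overlap at any of the 3 probes. Their log2 differences were 1.98 ± 0.24, 1.63 ± 0.18 and 1.29 ± 0.40 (SE) in the same order, with adjusted p = 0.0550, 0.0550 and 0.683 in limma. ILMN_2518346 passed without WT LCA replicate 3, at 1.43 with adjusted p = 0.0313, and without WT LCA replicate 1, at 1.72 with adjusted p = 0.0381.

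The other tropomyosin genes encode the beta form of muscle (Tpm2) and forms common in the cytoskeleton of many cells (Tpm3, Tpm4). Tpm4 (chr8:72135288-72153142) had KO LCA values of 545, 502 and 641 at ILMN_2515363, against 215, 263 and 125 in WT LCA, a log2 difference of 1.54 ± 0.36 with adjusted p = 0.411. Its probe ILMN_1223539 read 363, 355 and 339 in KO LCA and 269, 137 and 97.1 in WT LCA, 2.31-fold higher in KO LCA without overlap. Without WT LCA replicate 1 that probe had a log2 difference of 1.61 and passed with adjusted p = 0.0139, and without WT LCA replicate 3 it differed by 0.88 with adjusted p = 0.546. Whether it passed thus depended on which wild type array was left out. The Tpm4 probe ILMN_2571616 overlapped between genotypes, at 145, 235 and 188 in KO LCA and 107, 166 and 189 in WT LCA.

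Tpm2 (chr4:43513726-43523583) had its highest values at ILMN_2487170, which read 293, 165 and 222 in KO LCA, against 120, 130 and 85.2 in WT LCA. The groups did not overlap, and the difference was 1.01 ± 0.35 with adjusted p = 0.746. The other Tpm2 probes overlapped. ILMN_2787172 differed by -0.12, and ILMN_2482209 was at background in both groups. Tpm3 (chr3:90072651-90100902) gave discordant probes. The brightest, ILMN_2444316, overlapped fully between KO LCA (493, 667 and 675) and WT LCA (420, 763 and 581), with a difference of 0.09 ± 0.24. A second probe, ILMN_2435584, read 191, 216 and 158 in KO LCA, against 120, 135 and 85.2 in WT LCA, a difference of 0.75 ± 0.19 with adjusted p = 0.516. The remaining 4 Tpm3 probes lay near the receptor level. They include the 2 member probes on which every KO LCA array was the lower, ILMN_2443164 and ILMN_2426966, both at background in KO LCA.

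Cald1 (chr6:34598495-34775469) encodes caldesmon, which binds actin and tropomyosin and restrains the actin-activated myosin ATPase. Its brightest probe, ILMN_2508679, read 443, 436 and 849 in KO LCA, against 148, 140 and 90.8 in WT LCA. That is a log2 difference of 2.15 ± 0.42 with adjusted p = 0.208. ILMN_1232081 read 319, 269.9 and 226 in KO LCA, against 133, 149 and 121 in WT LCA. Its difference of 1.01 ± 0.13 had adjusted p = 0.0550, or 0.93 with adjusted p = 0.0938 without WT LCA replicate 3. ILMN_2804261 differed by 0.55 ± 0.12 and ILMN_2483771 by 0.36 ± 0.09, without overlap, and ILMN_1254073 by 0.79 ± 0.26 with overlap. All 5 probes were thus above 0, over a range from 0.36 to 2.15.

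Myl9 (chr2:156775408-156781657) encodes the regulatory myosin light chain of smooth muscle, the substrate of myosin light chain kinase. It read 271, 139 and 500.4 in KO LCA, against 121, 139 and 86.7 in WT LCA. The lowest knockout array exceeded the highest wild type array only by a fraction of an intensity unit, at 138.7471 against 138.672. The difference was 1.23 ± 0.40 with adjusted p = 0.701, and 0.78 without KO LCA replicate 3. Transgelin, encoded by Tagln (chr9:45929628-45936058), is an early marker of smooth muscle differentiation that bundles actin. At ILMN_1243652 it read 112, 106 and 112 in KO LCA, against 95.2, 93.9 and 94.4 in WT LCA, where it was at background, and KO LCA was at least 1.01-fold higher. Calponin 2, encoded by Cnn2 (chr10:79988600-79995400), is the calponin of non-muscle and smooth muscle cells. At ILMN_2596369 it read 119, 99.6 and 106 in KO LCA, against 91.2, 93.2 and 91.3 in WT LCA, at background in WT LCA, which gives no fold above 1. Actg2 (chr6:83512909-83536251), the gamma actin of enteric smooth muscle, read 103, 91.2 and 92.7 in KO LCA and 90.9, 93.0 and 80.7 in WT LCA, with overlap and with WT LCA at background.

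**Figure D2:**
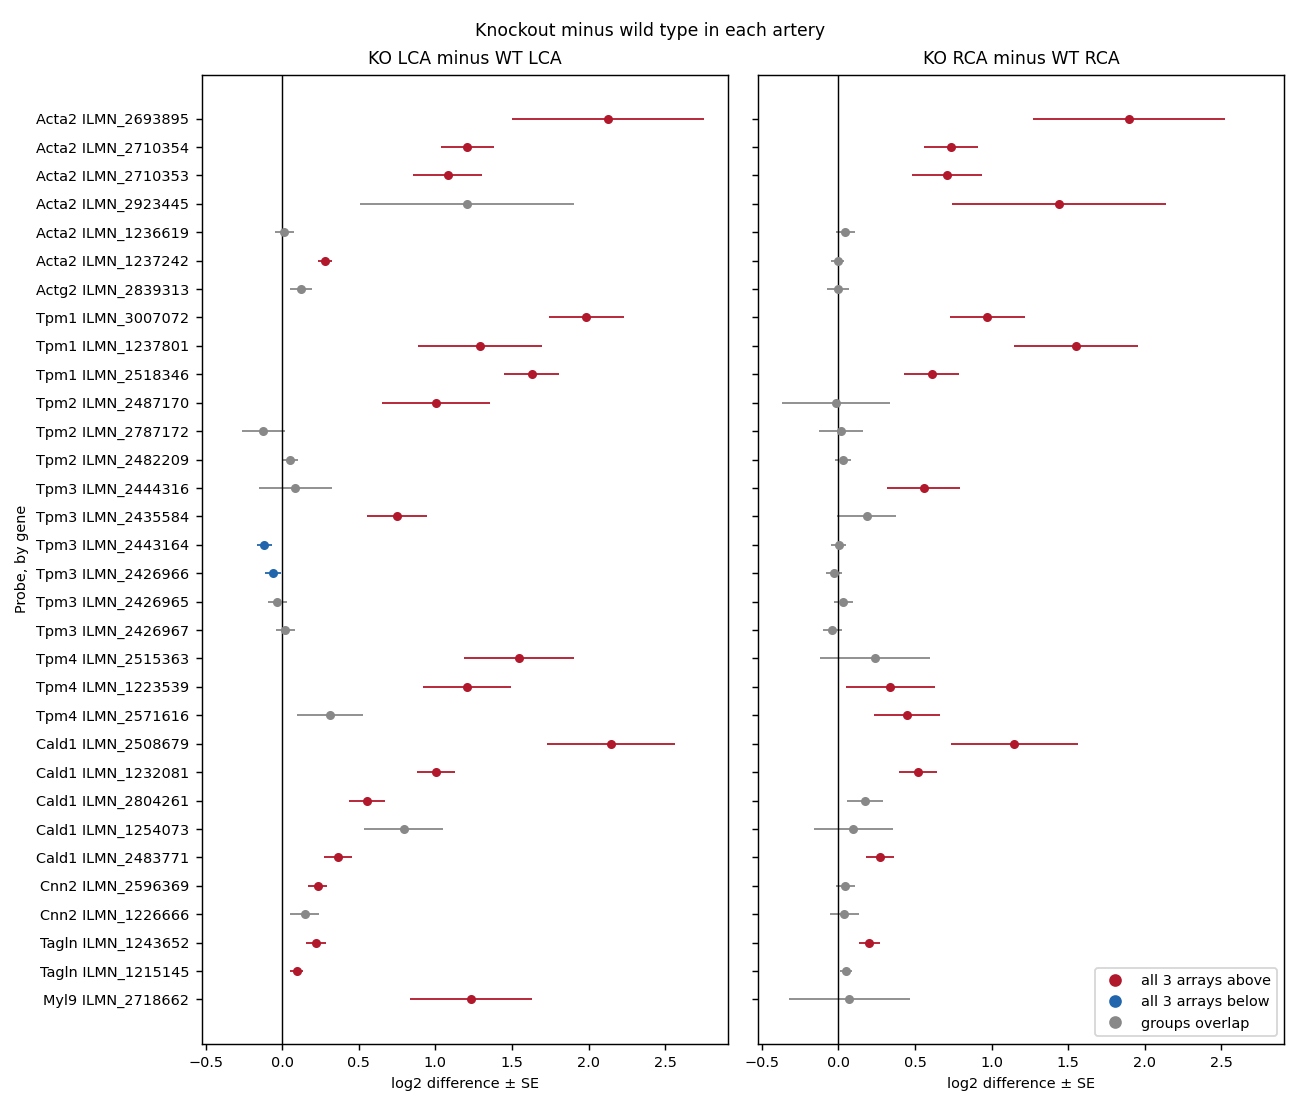
Log2 difference, knockout minus wild type (horizontal axes), with its SE for each of the 32 probes grouped by gene (vertical axis), in the ligated artery (left panel) and the untouched artery (right panel). Red points are probes whose 3 knockout arrays all lie above the 3 wild type arrays (19 in LCA, 14 in RCA), blue points the reverse (2 and 0) and grey points overlap.

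The untouched right artery was not ligated, and no flow values for it were used here. In this artery, 14 of the 32 member probes had all 3 KO RCA arrays above all 3 WT RCA arrays (5.69% of all probes). They lay below for 0 member probes (5.23%). At an unadjusted p under 0.05, 11 member probes were higher in KO RCA (2.27% of all probes) and 0 were lower (1.84%). The median difference was 0.18 over the member probes, and 28 of 32 were above 0, where 49.6% of all probes were. None of the member probes, and 0 of all 45281 probes (0%), passed after adjustment in limma. Without WT RCA replicate 3, 8 member probes were higher at an unadjusted p under 0.05 (1.91% of all probes).

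Acta2 at ILMN_2693895 read 334, 1206 and 704 in KO RCA, against 170, 277 and 117 in WT RCA, a log2 difference of 1.89 ± 0.63. At ILMN_2710354 it read 542, 572 and 702 in KO RCA, against 407, 403 and 287 in WT RCA, a difference of 0.74 ± 0.17. Adjusted p was 1.00 and 0.976 in limma. Tpm1 at ILMN_3007072 read 374, 539 and 510.5 in KO RCA, against 208, 261 and 252 in WT RCA, a difference of 0.97 ± 0.24 with adjusted p = 1.00. The other Tpm1 probes differed by 0.61 ± 0.18 and 1.55 ± 0.40. The larger of these had 222, 661 and 247 in KO RCA, against 118, 132 and 92.3 in WT RCA. Cald1 at ILMN_1232081 read 182, 181 and 202 in KO RCA, against 145, 129 and 121 in WT RCA, a difference of 0.52 ± 0.13.

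Tpm3 differed at its brightest probe in the right artery, with 622, 622 and 709 in KO RCA, against 388, 600.2 and 371 in WT RCA, a difference of 0.56 ± 0.24 (adjusted p = 1.00). Tpm2 and Myl9 overlapped, at -0.01 ± 0.35 and 0.07 ± 0.40. Tpm4 at ILMN_2515363 also overlapped, at 353, 429 and 758 in KO RCA and 406, 289 and 597 in WT RCA. The other Tpm4 probes, ILMN_1223539 (0.34 ± 0.29) and ILMN_2571616 (0.45 ± 0.22), were higher in KO RCA without overlap. Tagln was at least 1.05-fold higher in KO RCA, with WT RCA at background. The Cnn2 probes were at background in both groups.

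The LCA and RCA genotype comparisons use different arrays. Of the 32 member probes, 25 were above 0 in both and 1 was below 0 in both. These 2 counts were not taken over all probes, so they have no background share. The difference was larger in LCA for 23 of the 32, and for 48% of all probes. That contrast is the interaction, the ligation effect in knockout less that in wild type. Its median was 0.15 over the member probes and -0.01 over all probes. At an unadjusted p under 0.05 it was higher for 6 member probes (2.23% of all probes) and lower for 0 (1.64%), and 0 member probes and 0 of all probes (0%) passed after adjustment. Those 6 were the Tpm1 probes ILMN_3007072 (1.01 ± 0.35) and ILMN_2518346 (1.02 ± 0.25), the Tpm4 probe ILMN_2515363 (1.31 ± 0.51), the Cald1 probes ILMN_1232081 (0.48 ± 0.18) and ILMN_2804261 (0.38 ± 0.17), and the dim Acta2 probe ILMN_1237242, at background in 3 of the 4 groups, each with adjusted p = 0.924. Without both WT replicate 3 arrays the count was 4 (2.58% of all probes) and the median over the member probes 0.10.

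**Figure D3:**
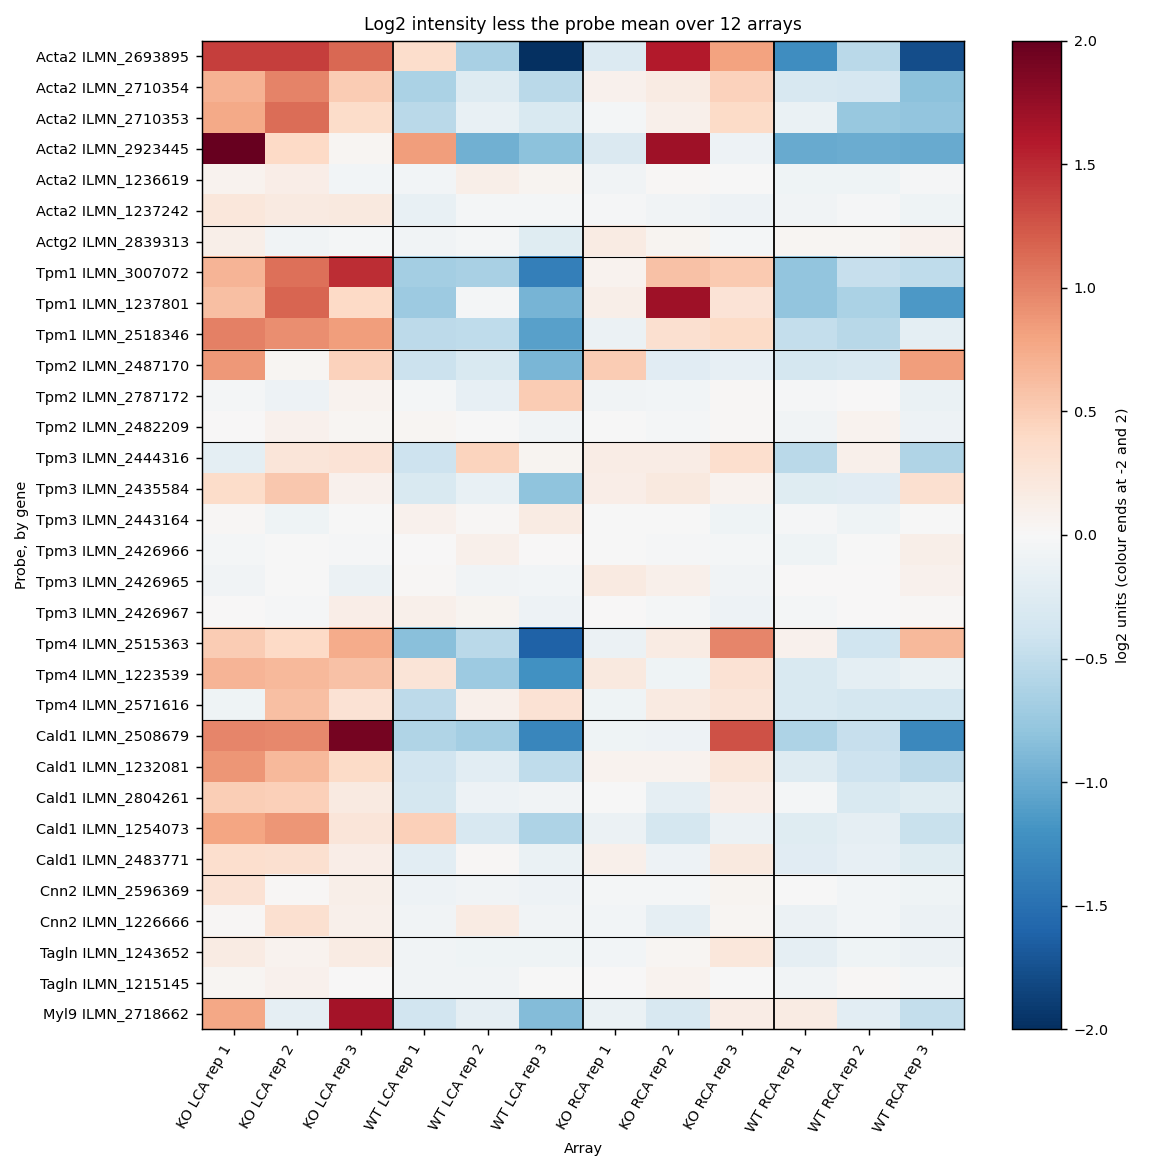
Log2 intensity less the probe's own mean over 12 arrays (colour, red higher and blue lower) for the 32 probes (rows, by gene) on the 12 arrays (columns, by group). The KO LCA columns are mostly red for Acta2, Tpm1, Tpm4 and Cald1, WT LCA replicate 3 is the bluest column, and KO RCA replicate 2 carries the highest values of 1 Acta2 probe and 1 Tpm1 probe.

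In knockout mice, some Tpm1, Cald1 and Acta2 probes had higher values in the ligated than in the untouched artery. In KO LCA against KO RCA, 28 of 32 member probes were above 0 (51.6% of all probes) and the median was 0.20, against 0.00 for all probes. At an unadjusted p under 0.05, 10 were higher (4.22% of all probes) and 0 lower (4.85%), and 0 passed after adjustment in limma, as for all probes (0%). All 3 KO LCA arrays exceeded all 3 KO RCA arrays for 8 member probes (10.4% of all probes) and lay below them for 0 (11%). The count of 10 was 5 when KO RCA replicate 1 was left out (3.28% of all probes) and 6 when it was KO RCA replicate 2 (3.13%).

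In this comparison Tpm1 read 573, 768 and 989 in KO LCA, against 374, 539 and 510.5 in KO RCA at ILMN_3007072, a log2 difference of 0.69 ± 0.24. Its probe ILMN_2518346 differed by 0.73 ± 0.18 and ILMN_1237801 by 0.02 ± 0.40. Acta2 at ILMN_2710354 differed by 0.49 ± 0.17 without overlap. Its brightest probe, ILMN_2693895, overlapped at 0.60 ± 0.63, as did ILMN_2710353 (0.60 ± 0.23) and ILMN_2923445 (0.45 ± 0.70). For Cald1, ILMN_1232081 differed by 0.52 ± 0.13, ILMN_2804261 by 0.40 ± 0.12 and ILMN_1254073 by 0.83 ± 0.26, all without overlap. The brightest Cald1 probe, ILMN_2508679, overlapped at 0.92 ± 0.42, as did ILMN_2483771 (0.20 ± 0.09). Adjusted p for these Tpm1, Acta2 and Cald1 probes lay between 0.479 and 0.996. Myl9, at 271, 139 and 500.4 in KO LCA and 144, 126 and 176 in KO RCA, overlapped, with 0.85 ± 0.40. Cnn2 was at background in KO RCA, and both of its probes overlapped between the groups. Tagln, Tpm2 and Actg2 overlapped between these groups, as did Tpm4 apart from ILMN_1223539 (0.51 ± 0.29).

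In wild type arteries the 32 member probes stayed near the background share of calls. At the brightest probe of each gene, 3 of 10 were above 0 in WT LCA against WT RCA (50.3% of all genes). The median of these 10 was -0.13. At an unadjusted p under 0.05, 0 of them were higher and 2 lower, where 831 of the 19057 genes were lower. Of the 32 member probes, 19 were above 0, where 52.1% of all probes were. WT LCA against WT RCA had 1 member probe higher at an unadjusted p under 0.05 (2.88% of all probes) and 2 lower (3.61%), and 0 passed after adjustment, as for all probes (0%). The groups did not overlap for 2 higher probes (5.09%) and 2 lower ones (5.53%). The higher ones were Acta2 ILMN_2923445 (0.68 ± 0.70) and the dim Tpm3 probe ILMN_2443164, at background in WT RCA. One of the lower probes was Tpm4 ILMN_2515363, above the receptor level on 11 of 12 arrays. It read 215, 263 and 125 in WT LCA, against 406, 289 and 597 in WT RCA. The log2 difference was -1.10 ± 0.36 with adjusted p = 0.714. Its value of 125 is that of WT LCA replicate 3 and lies under the receptor level of that array (126). Actg2, the other, was at background in WT LCA, so no size is given for it. Acta2 at ILMN_2710354 differed by 0.02 ± 0.17, and its brightest probe, ILMN_2693895, by 0.37 ± 0.63 with overlap. Tpm1 at ILMN_3007072 differed by -0.32 ± 0.24 and Cald1 at ILMN_1232081 by 0.03 ± 0.13. The brightest probes of Tpm2 (-0.60 ± 0.35), Myl9 (-0.31 ± 0.40), Cald1 (-0.07 ± 0.42) and Tpm3 (0.37 ± 0.24) overlapped. The count of 1 higher probe was 4 when WT LCA replicate 1 was left out, in a fit where the share of all probes was 7.61%. It was 0 without both WT replicate 3 arrays (2.04% of all probes). The count of 2 lower probes was 0 without WT LCA replicate 3, without WT RCA replicate 3 and without both. Of all 45281 probes, 1035, 1831 and 1178 were lower in these fits.

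**Figure D4:**
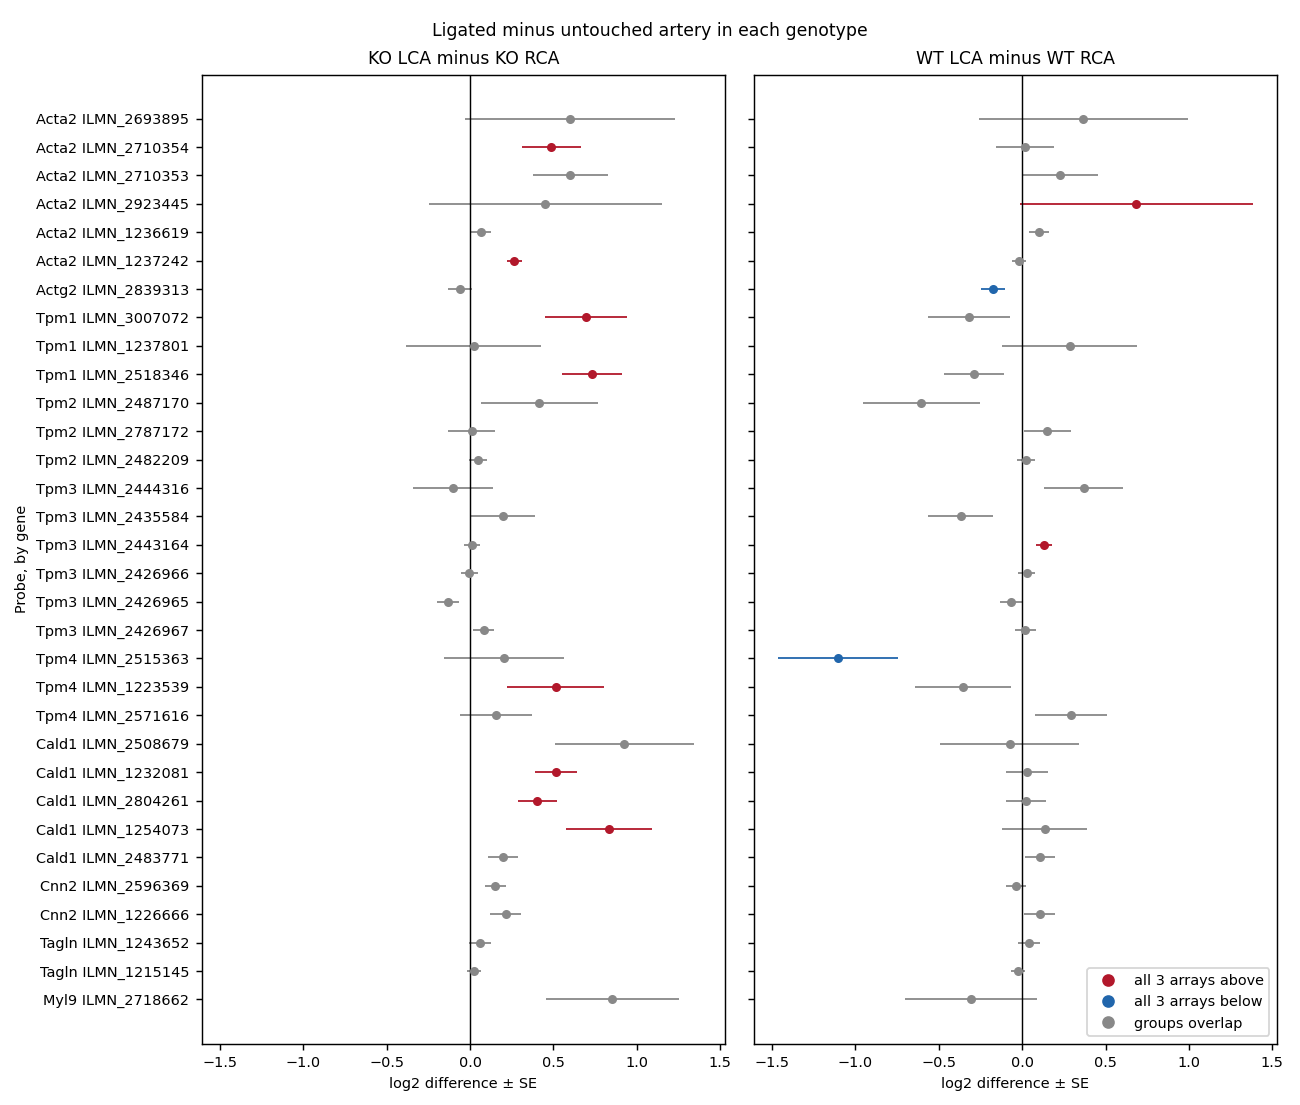
Log2 difference, ligated left minus untouched right artery (horizontal axes), with its SE for the 32 probes by gene (vertical axis), in knockout (left panel) and wild type (right panel). All 3 LCA arrays exceed all 3 RCA arrays for 8 probes in knockout (red) and for 2 in wild type, and lie below them (blue) for 0 in knockout and 2 in wild type.

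Agreement between probes of a gene varied. Over the 12 arrays, the Tpm1 probes ILMN_3007072 and ILMN_2518346 had Pearson's r = 0.954 and Spearman's rho = 0.874, and r = 0.944 without the 2 arrays farthest from the median. The 4 Cald1 probes other than the brightest had r between 0.663 and 0.920 with each other. Without the 2 arrays farthest from the median, r was 0.022, 0.213 and 0.376 for the pairs with ILMN_1254073 and 0.767 to 0.834 for the rest. The brightest Cald1 probe had r between 0.632 and 0.856 with those 4. After each group's mean was taken off, the brightest Cald1 probe had r between -0.06 and 0.19 with the others, so its agreement lies between groups and not within them. For Acta2, ILMN_2710354 and ILMN_2710353 had r = 0.949, and ILMN_2693895 and ILMN_2923445 had r = 0.800, while ILMN_2693895 had r = 0.813 with ILMN_2710354 and 0.722 with ILMN_2710353. The r between ILMN_2710354 and ILMN_2923445 was 0.547. Within groups these 5 Acta2 values were 0.798, 0.605, 0.235, -0.01 and -0.22. KO RCA replicate 2 was the highest KO RCA array at ILMN_2693895 and ILMN_2923445 (1206 and 672) but not at ILMN_2710354 and ILMN_2710353 (572 and 411). Probes of Tpm3 disagreed, with r = 0.078 between ILMN_2444316 and ILMN_2435584, and those of Tpm4 ranged from 0.086 to 0.725. The brightest Tpm2 probe had r = -0.50 and -0.04 with the other Tpm2 probes. These correlations are descriptions, since all probes share the same arrays and groups.

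Across the members, the brightest Tpm1 probe followed the brightest Cald1 probe with r = 0.914, Acta2 with r = 0.866, Tagln with 0.825 and Tpm4 with 0.755, and had lower r with Actg2 (0.270) and Tpm3 (0.421). Without the 2 arrays farthest from the median these were 0.851, 0.871, 0.809 and 0.752, and 0.623 for Actg2 and 0.271 for Tpm3. Among genes outside the set, the probes most like it over the 12 arrays were those of Grwd1 (0.983), Hspa9 (0.959), Hars (0.951), Slc38a2 (0.946) and Slc39a13 (0.933). For the brightest Acta2 probe they were Slmap (0.954), Fn1 (0.947), Rab26os (0.922), Gtpbp4 (0.916) and Heatr1 (0.912). Without the 2 arrays farthest from the median the lowest of these 10 values was 0.836.

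Other contractile genes were less uniform in KO LCA against WT LCA. Of 26 with a probe, 22 were above 0, 7 were higher at an unadjusted p under 0.05 and 0 lower, where 4.54% of the 19057 genes were higher by their brightest probe. Their median log2 difference was 0.12, against 1.12 for the 10 members and -0.01 for all genes. Csrp1, a LIM protein of smooth muscle, averaged 440.5 ± 147 (SD, n = 3) in KO LCA and 145 ± 37.3 in WT LCA, a difference of 1.57 ± 0.45. Vcl, encoding vinculin, which ties actin to adhesions, averaged 255 in KO LCA and 155 in WT LCA, a difference of 0.71 ± 0.18. Pdlim7, an actin-bound scaffold gene, averaged 132 ± 18.2 in KO LCA and 89.4 ± 10.2 in WT LCA, a difference of 0.56 ± 0.12. Adjusted p for these 3 was 0.617, 0.516 and 0.359 in limma. In WT LCA against WT RCA, 8 of the 26 were above 0. At an unadjusted p under 0.05, 0 were higher and 5 lower there, where 831 of the 19057 genes were lower. Csrp1, Vcl and Pdlim7 differed by -0.87, -0.43 and -0.39 in that comparison, and by 0.24, 0.16 and -0.01 in KO LCA against KO RCA.

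Genes of the general actin cytoskeleton were above 0 for 11 of 11 with a probe, with a median of 0.27, and 2 were higher at an unadjusted p under 0.05. Cap1, for actin filament turnover, differed by 0.44 ± 0.12, the capping protein gene Capzb by 1.04 ± 0.42 and the cofilin gene Cfl1 by 0.91 ± 0.48. Adjusted p was 0.607, 0.805 and 0.819 in limma. The KO LCA arrays spread widely for Capzb, at 302 ± 224 (SD) against 126 ± 27.3 in WT LCA. They did so too for Cfl1, at 233 ± 209 against 96.8 ± 11.4. Among SRF and its partner factors, 8 of 12 were above 0 and 3 were higher at that level. Srf averaged 557 ± 186 in KO LCA and 156 ± 50.9 in WT LCA, a difference of 1.85 ± 0.40 with adjusted p = 0.308. Between ligated and untouched arteries Srf differed by -1.02 ± 0.40 in wild type and by 0.55 ± 0.40 in knockout. In KO LCA against WT LCA, Fhl1 differed by 0.75 ± 0.17 and Myocd, the myocardin gene, by 0.24 ± 0.10, with adjusted p = 0.394 and 0.804 in limma. In the untouched artery the 3 lists had 2, 2 and 0 genes higher at an unadjusted p under 0.05, where 2.81% of all genes were.

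Marker lists of other cell types were read beside the members in KO LCA and WT LCA. Of all 19057 genes by their brightest probe, 45.2% were above 0 in this comparison and 4.54% were higher at an unadjusted p under 0.05. Adventitial fibroblast markers were also higher in KO LCA, with 11 of 12 above 0, 7 higher at an unadjusted p under 0.05, and a summed intensity of 1973 to 2716 in KO LCA, against 1235 to 1713 in WT LCA. In RCA the same list had 5 of 12 above 0, with sums of 1742 to 2043 in KO RCA and 1889 to 2500 in WT RCA. Blood cell markers had higher values in KO RCA than in WT RCA, with 7 of 7 above 0 and 2 higher at an unadjusted p under 0.05. Their sums were 2731 to 9891 in KO RCA, against 1237 to 3113 in WT RCA. Of all genes, 51.7% were above 0 in RCA and 2.81% higher at that level. Fibroblast markers had 10 of 12 above 0 in KO LCA against KO RCA (46.7% of all genes), 6 of them higher at an unadjusted p under 0.05 (3.3%). In the interaction 11 of 12 fibroblast markers were above 0 (45.2% of all genes) and 5 higher at that level (2.2%). Their median was 0.80, against 0.62 for the brightest probes of the members. The part of fibroblast, blood cell and adipocyte markers in the member values was not tested. Striated muscle markers, which would report neck muscle, had 7 of 20 above 0 in LCA, sums of 1780 to 1818 in KO LCA and 1799 to 1995 in WT LCA, and 13 of 20 at background on all 12 arrays. Endothelial markers had 6 of 12 above 0, with sums of 3398 to 6034 in KO LCA and 3743 to 4247 in WT LCA. Adipocyte markers had 8 of 10 above 0, with 3 higher and 0 lower at an unadjusted p under 0.05. Their sums were 1261 to 1539 in KO LCA and 934 to 1103 in WT LCA, and 4 of 10 were at background on all arrays. In KO LCA against KO RCA, 3 adipocyte markers were higher and 1 lower at that level. Macrophage markers had 5 of 9 above 0 (884 to 1135 in KO LCA, 821 to 1295 in WT LCA), blood cell markers 6 of 7 (2335 to 4792 in KO LCA, 2324 to 3577 in WT LCA) and nerve and Schwann cell markers 3 of 5 (443 to 460.4 in KO LCA, 442 to 453 in WT LCA), 4 of those 5 at background throughout.

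Array signal differed between the LCA groups too. The share of all probes above the receptor level was 32.6%, 26.7% and 41.5% on the KO LCA arrays, against 32.7%, 26.5% and 11.7% on the WT LCA arrays. The number of member probes above that level was 24, 22 and 25 in KO LCA, against 19, 20 and 7 in WT LCA. The part of array signal in the member values was not tested.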

How the data were processed

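Arteries were measured on 12 one-colour Illumina arrays of biotinylated cRNA, per the labels. The deposited values are linear probe intensities. On all arrays the sorted values differ by at most 0.564% at a rank, as quantile normalization between arrays gives. Scanner software, background step and normalization tool are not given in the labels. No slide or chip is given, so no slide block could be fitted. The number of arrays limits the precision.

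Log2 intensities (floor of 1) of all 45281 probes entered 1 fit on 4 group means with limma 3.58.1 in R 4.3.3, with moderated two-sided tests and Benjamini-Hochberg adjustment over all probes at 0.05. No probe was filtered out, so every member probe was tested. Probes were named by the platform annotation (34885 with 1 symbol, 18 with several, 10378 with none). A fold against a group at background is a bound against the receptor level.

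Named genes followed a fixed rule: every member probe, the 3 genes with the smallest p in KO LCA against WT LCA from each of 3 lists, and the 5 genes most correlated with the brightest Acta2 and Tpm1 probes, predicted genes and RIKEN clones left out. The members and lists were chosen with earlier results of these data known. Probes of the same gene are not independent. The test was checked on simulated data. Alternatives were the probe filter, 1 probe per gene, replicate blocks, array weights, eBayes with trend and robust, a pseudocount of 16, subtraction of 60, centring, fits of the compared groups alone and leaving out arrays.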

Additional observations from a re-analysis of the deposited data

How the results depend on the processing

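No member probe reversed a called direction, since none was called. In KO LCA against WT LCA, the count of member probes past adjusted p = 0.05 in limma, 0 as reported, was 3 with dim probes left out (2 of Tpm1 and 1 of Cald1), 3 with 60 subtracted from the intensities, 1 with array weights (Tpm1 ILMN_2518346, adjusted p = 0.0323), and 1 without both WT replicate 3 arrays. It ranged from 0 to 2 with 1 array left out. For all probes in that comparison the count, 1 as reported, was 12 with dim probes left out, 17 with 60 subtracted, 4 with array weights, 0 with trend and robust, with centring and with the compared groups alone, 19 without both WT replicate 3 arrays, and 0 to 21 with 1 array left out.

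For all probes in the other comparisons, 0 as reported, it was 0 to 5 with 1 array left out in KO RCA against WT RCA and 1 without both WT replicate 3 arrays. It was 0 to 5 in KO LCA against KO RCA. In WT LCA against WT RCA it was 1 with array weights, 10 without both WT replicate 3 arrays and 0 to 10 with 1 array left out, and for the interaction 0 to 4. Member probes higher at an unadjusted p under 0.05 ranged from 5 to 13 in KO LCA against KO RCA (3.13% to 5.51% of all probes) and from 0 to 4 in WT LCA against WT RCA (1.61% to 7.61%) with 1 array left out, with 0 in the last without both WT replicate 3 arrays. Leaving out both of these arrays was chosen after seeing the data. The causes were not tested. The filter left 32606 probes, on which the fit and the adjustment were made anew. At the brightest probes of KO LCA against WT LCA, 129 of 130 values with an array left out and 87 of 90 under other settings kept direction and side of the threshold; of the other 3, 2 newly passed and 1 changed sign without being called. In KO RCA against WT RCA, 12 of 130 and 5 of 90 changed sign uncalled, and for the interaction 7 of 130 and 1 of 90.

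Whether arrays with the same number share a mouse is not known. Their deviations correlated between -0.02 and 0.09 over all probes, and at 0.134 for WT replicate 3 over probes above the receptor level, so the numbers were not used as pairs. With the replicate block, fixed or random, 0 member probes passed in the comparisons fitted. Dim signal limits Actg2, Cnn2 and Tagln, which lay near the receptor level.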
